A study of Sus scrofa with 21 samples.

Results

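Genes that mark vascular endothelium were followed through the healing of a porcine myocardial infarction (MI). The 7 genes were PECAM1, VWF, CDH5, KDR, TEK, NOS3 and ERG. Every probe set to which the array's annotation gives 1 of these symbols and no other was taken, 14 of the 24123 in the deposited table. RNA was measured on 21 Affymetrix porcine arrays, 1 per sample, in 7 groups of 3 samples. Infarct core (IC) came from the middle of the left ventricular scar and remote myocardium (RM) from the non-infarcted interventricular septum of the same 9 pigs. These were female Landrace x Large White crossbreeds in which a marginal branch of the circumflex coronary artery had been tied off for good, and they were killed at 1 week (pigs 7, 8 and 9), 4 weeks (pigs 18, 20 and 22) or 6 weeks (pigs 2, 3 and 5). The sample labels give these stages as 6, 30 and 45 days. Control myocardium (CM) came from pigs 30, 31 and 33. The sample labels call these pigs sham-operated at 0 days, the study's text calls them healthy, and the sampling site within their hearts is not given in the sources used here. An effect of the infarct in IC or RM therefore cannot be told apart from an effect of the sampled region, of the operation or of the time up to sampling. Each stage was seen in different pigs.

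The endothelium is the cell layer that lines blood vessels, and in the heart it forms a dense net of capillaries between the cardiomyocytes. Its cells are held together by junction proteins such as VE-cadherin (CDH5) and CD31 (PECAM1), and they carry receptors for vascular growth factors, the VEGF receptor 2 (KDR) and the angiopoietin receptor Tie2 (TEK). They store von Willebrand factor (VWF), which captures platelets at an injured wall, they make nitric oxide with endothelial nitric oxide synthase (NOS3), and ERG, a transcription factor of the ETS family, maintains their identity.

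The values are expression on the log2 scale after robust multi-array averaging (RMA), so a difference of 1 is a 2-fold change. They have no absolute unit, so levels of different probe sets were not set against each other. Only probe sets that exceeded 3 in 10 or more arrays entered the tests. This left 12180, among them 6 of the 14 endothelial ones, each above 3 in all 21 arrays. These were 2 of PECAM1 (Ssc.14558.1.S1_at and Ssc.6050.1.A1_at) and 1 each of VWF (Ssc.978.1.S1_at), CDH5 (Ssc.75.1.S1_at), TEK (Ssc.4753.1.A1_at) and ERG (Ssc.9771.1.A1_at). KDR and NOS3 had no tested probe set by this annotation. Differences between group means, given as log2 fold change (log2 FC), were tested with limma, with Benjamini-Hochberg adjustment over all tested probe sets of a comparison, and an adjusted P value under 0.05 was called. IC and RM of the same pigs were compared within pigs. The 3 CM arrays served every comparison with CM, so that the IC and RM results against CM are not independent of each other.

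The IC array of pig 22 stood apart from its group over many probe sets, and the CM array of pig 30 in single genes. The IC array of pig 22 differed more than 2-fold from the mean of the other IC arrays at 4 weeks in 751 of the tested probe sets, where the same count was 105 to 532 in the other 20 arrays. It was the highest of its group in 6 of the 6 tested endothelial probe sets. The summed level of 11 cardiomyocyte markers was 14.51 in it, against 15.08 and 15.04 in the IC arrays of pigs 18 and 20, and that of 6 macrophage and leukocyte markers was 9.88, against 8.97 and 8.96. By the count of probe sets more than 2-fold from the group, the CM array of pig 30 did not stand apart, at 296. It had ICAM1, an adhesion molecule for leukocytes, at 9.42, against 4.98 and 5.33 in the CM arrays of pigs 31 and 33, while the 18 IC and RM arrays lay between 4.35 and 6.37. VCAM1, another adhesion molecule that activated endothelium displays, was at 10.41 in that array, against 7.85 and 7.31. Values without these arrays are given for part of the results that rest on them. A labelling control, AFFX-r2-Bs-thr-5_s_at, averaged 2.06 in IC and 2.59 in RM at 1 week and 4.46 in IC and 4.16 in RM at 4 weeks. At 6 weeks it averaged 1.62 in IC and 1.60 in RM, against 2.96 in CM. The order of the groups was not the same in every such control. AFFX-r2-Bs-dap-3_at averaged 7.38 in IC and 7.42 in RM at 1 week and 8.22 in IC and 7.62 in RM at 4 weeks. At 6 weeks it averaged 8.83 in IC and 7.96 in RM, against 7.47 in CM. AFFX-Ssc-gapdh-3_at, for the 3' end of GAPDH RNA, averaged 12.30, 12.05 and 12.42 in IC at 1, 4 and 6 weeks. It averaged 12.61, 12.80 and 12.75 in RM and 12.79 in CM. AFFX-Ssc-gapdh-5_at, for the 5' end, averaged 10.99, 11.29 and 11.28 in IC, 12.30, 12.81 and 12.47 in RM and 12.70 in CM. In AFFX-Ss_Gapdh_3_at and AFFX-Ss_Gapdh_5_at, a like pair, the means were 10.17 and 9.68 in IC at 1 week. They were 10.99 and 10.32 in RM at 1 week and 11.34 and 10.68 in CM. The part of RNA quality or labelling in the results was not tested.

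**Figure D1:**
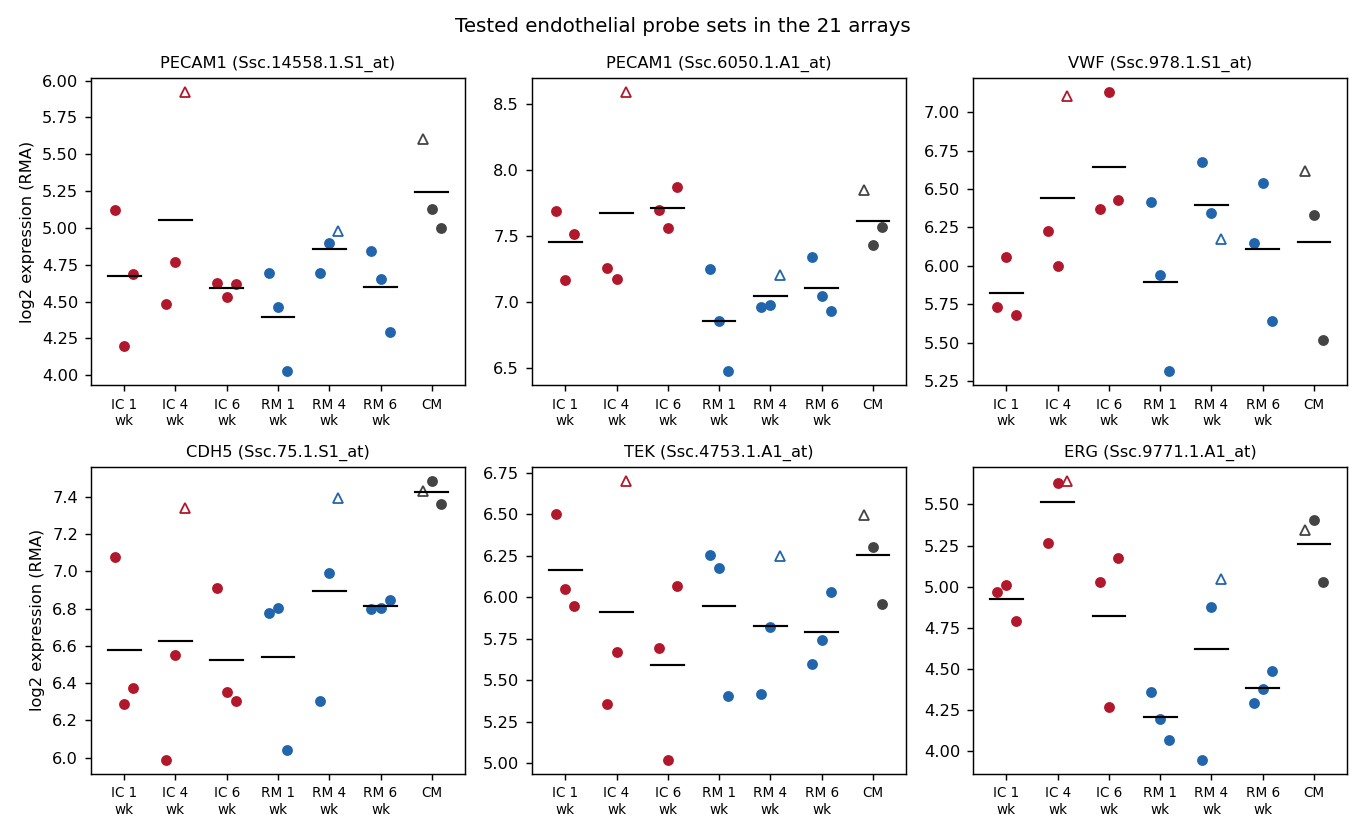
Log2 expression of the 6 tested endothelial probe sets (y axis, a scale for each panel) in IC and RM at 1, 4 and 6 weeks and in CM (x axis). Each point is 1 array, the line is the mean of 3 arrays, and open triangles are the arrays of pigs 22 and 30. CDH5 lies below all 3 CM arrays in all 9 IC arrays, and the IC array of pig 22 is the highest of its group in all 6 panels.

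Few of the endothelial probe sets were called. Over the 3 stages together, 1 of 6 was lower in IC than in CM and 0 were higher, where 31.8% of all tested probe sets were lower and 27.5% were higher. Their median log2 FC was -0.27, beside -0.07 over all tested probe sets. In RM against CM 0 of 6 were called, where 0.878% of all tested probe sets were, although 4 of 6 had an unadjusted P value under 0.05 in limma. All 6 had a negative log2 FC, with a median of -0.62 beside 0.00 over all tested probe sets. Among the CM arrays that of pig 30 was the highest in 4 of the 6 probe sets and the lowest in 0. That of pig 33 was the highest in 0 and the lowest in 5. The median without pig 30 is not given here. In IC against RM of the same pigs 2 of 6 were higher and 0 lower, where 33% of all tested probe sets were higher and 39.2% lower. At single stages against CM, 1 of 6 was lower in IC at 1, 4 and 6 weeks, where 28.2%, 29.1% and 26% of all tested probe sets were lower. In RM 1 of 6 was lower at 1 week, where 0.624% of all were, and 0 were called at 4 and 6 weeks, with 1 and 2 at an unadjusted P value under 0.05, where 1.08% and 0.197% of all were called. These arrays hold RNA of whole tissue, in which fewer endothelial cells and less of an RNA in each of them cannot be told apart.

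CDH5, which encodes the cadherin of endothelial junctions, was lower in IC than in CM at every stage. It was at 7.08, 6.29 and 6.37 in IC at 1 week (pigs 7, 8 and 9), at 5.99, 6.55 and 7.34 at 4 weeks (pigs 18, 20 and 22) and at 6.91, 6.35 and 6.30 at 6 weeks (pigs 2, 3 and 5), against 7.43, 7.49 and 7.36 in CM (pigs 30, 31 and 33). All 9 IC arrays lay below all 3 CM arrays. The log2 FC was -0.85 over the 3 stages (standard error 0.26, 95% confidence interval -1.39 to -0.31, adjusted P value 0.00905, 9 arrays against 3), a level 1.80-fold lower. By stage it was -0.85 at 1 week (adjusted P value 0.0314), -0.80 at 4 weeks (0.0407) and -0.90 at 6 weeks (0.0263), all in limma. The call over the stages held without pig 30 (-0.85, adjusted P value 0.0301) and without the IC array of pig 22 (-0.97, adjusted P value 0.00164). The calls at single stages did not hold without pig 30, where the adjusted P value was 0.064, 0.078 and 0.0563 at 1, 4 and 6 weeks, or without pig 31, where it was 0.0758, 0.0919 and 0.0662. Without pig 33 the calls at 1 and 4 weeks were lost (0.0558 and 0.0687). They were also lost without the IC arrays of pig 8 or 9 at 1 week (0.115 and 0.1), pig 18 (log2 FC -0.48, 0.224) or 20 (0.0891) at 4 weeks and pig 3 or 5 at 6 weeks (0.0783 and 0.0945).

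In RM, CDH5 was at 6.78, 6.80 and 6.04 at 1 week, 6.30, 6.99 and 7.39 at 4 weeks and 6.80, 6.80 and 6.84 at 6 weeks, and 8 of the 9 RM arrays lay below all CM arrays. Its log2 FC against CM over the stages was -0.68 (95% confidence interval -1.22 to -0.13), and with an adjusted P value of 0.239 it was not called. Its unadjusted P value there was 0.0178, and far fewer probe sets differed between RM and CM than between IC and CM, which raises the adjusted value. The difference of IC and RM in the same pigs was -0.17 (95% confidence interval -0.42 to 0.07, adjusted P value 0.179), with IC higher in 3 of 9 pigs. These values are of Ssc.75.1.S1_at.

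PECAM1 encodes CD31, an adhesion molecule of endothelial junctions that platelets and leukocytes also carry, and its 2 tested probe sets gave different accounts of the scar. With Ssc.6050.1.A1_at it was at 7.69, 7.16 and 7.52 in IC at 1 week, against 7.25, 6.85 and 6.48 in RM of the same pigs. At 4 weeks it was at 7.26, 7.17 and 8.59 in IC, against 6.96, 6.98 and 7.20 in RM, and at 6 weeks at 7.69, 7.56 and 7.87 in IC, against 7.34, 7.05 and 6.93 in RM. IC was higher than RM in 9 of 9 pigs, although the ranges of all IC and all RM arrays overlapped. The log2 FC was 0.61 over the stages (standard error 0.14, 95% confidence interval 0.31 to 0.91, adjusted P value 0.00218). By stage it was 0.60 at 1 week (adjusted P value 0.0542), 0.63 at 4 weeks (0.0439) and 0.60 at 6 weeks (0.0569). The call over the stages held without pig 22 (0.48, adjusted P value 0.00262), and that at 4 weeks did not (0.25, adjusted P value 0.37).

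Against CM, where this PECAM1 probe set was at 7.85, 7.43 and 7.57, its level in IC did not differ beyond the spread (log2 FC -0.00, 95% confidence interval -0.49 to 0.48, adjusted P value 0.988), and it was not called without pig 30 (0.11, adjusted P value 0.746) or the IC array of pig 22 (-0.16, adjusted P value 0.403). In RM all 9 arrays lay below all 3 CM arrays, with a log2 FC of -0.61 (95% confidence interval -1.10 to -0.13) that was not called (adjusted P value 0.233). The RM value without pig 30, the highest of CM at 7.85, is not given here. PECAM1 was higher in IC than in RM together with the leukocyte markers, whose summed level ran from 8.38 to 10.14 in IC and from 7.23 to 7.73 in RM. Of the measured genes of that list 6 of 6 were called higher in IC than in RM, where 33% of all tested probe sets were. The part of leukocytes in the PECAM1 values was not tested.

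With Ssc.14558.1.S1_at, PECAM1 was at 5.12, 4.20 and 4.69 in IC at 1 week, 4.48, 4.77 and 5.92 at 4 weeks and 4.62, 4.53 and 4.62 at 6 weeks. In RM it was at 4.69, 4.46 and 4.03 at 1 week, 4.70, 4.90 and 4.98 at 4 weeks and 4.85, 4.65 and 4.30 at 6 weeks, against 5.61, 5.13 and 5.00 in CM. IC exceeded RM in 4 of 9 pigs (log2 FC 0.16, adjusted P value 0.333), and 7 of 9 IC arrays lay below all CM arrays (log2 FC -0.47, adjusted P value 0.104). Without the IC array of pig 22 this probe set was lower in IC than in CM over the stages (-0.62, adjusted P value 0.0094), and without that of pig 7 it was lower at 1 week (-0.80, adjusted P value 0.0478, where all arrays gave -0.58 and no call). Its values against CM without pig 30, whose array was the highest of CM at 5.61, are not given here. The log2 FC of IC against RM was smaller for Ssc.14558.1.S1_at than for Ssc.6050.1.A1_at by 0.45 on average and in 9 of 9 pigs (exact sign flip test, two-sided P value 0.00391, the smallest that 9 pigs can give, 0.0341 after adjustment over 45 such differences). The size of the PECAM1 difference between IC and RM therefore depended on the probe set, and which parts of the transcript each covers was not analysed here.

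ERG, the transcription factor, was higher in IC than in RM. It was at 4.97, 5.01 and 4.79 in IC at 1 week, against 4.36, 4.19 and 4.07 in RM. At 4 weeks it was at 5.26, 5.63 and 5.64 in IC, against 3.95, 4.88 and 5.05 in RM, and at 6 weeks at 5.03, 4.27 and 5.17 in IC, against 4.29, 4.38 and 4.48 in RM. The groups did not overlap at 1 and 4 weeks, and IC was higher in 8 of 9 pigs, with pig 3 at 6 weeks the exception (-0.11). The log2 FC was 0.68 over the stages (standard error 0.11, 95% confidence interval 0.44 to 0.92, adjusted P value 0.00024), 0.71 at 1 week (0.00943), 0.89 at 4 weeks (0.00274) and 0.44 at 6 weeks (0.0793). The value over the stages without pig 22 was 0.73 (adjusted P value 0.000305). Without pig 8 the call at 1 week was lost (adjusted P value 0.0566), and without pig 3 the value at 6 weeks was 0.71 and was called (0.0194). At single stages of this comparison 1 of 6 endothelial probe sets was higher at 1 week, 2 at 4 weeks and 0 at 6 weeks, where 24.7%, 25.5% and 22.6% of all tested probe sets were higher and 2 had an unadjusted P value under 0.05 at 6 weeks.

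In CM, ERG was at 5.35, 5.40 and 5.03, and each region was set against them. In RM 8 of 9 arrays lay below all CM arrays, and at 1 week ERG was lower by a log2 FC of -1.05 (standard error 0.25, adjusted P value 0.0465), a level 2.07-fold lower. At 4 and 6 weeks its log2 FC in RM was -0.64 and -0.87 (adjusted P value 0.207 and 0.152), and over the stages it was -0.85 (95% confidence interval -1.28 to -0.43, adjusted P value 0.0534). Without the RM array of pig 18 or of pig 22 the value over the stages was called (-0.74 and -0.92, adjusted P value 0.0456 and 0.0393). The call at 1 week was lost when any of the 3 RM or 3 CM arrays was left out, with an adjusted P value of 0.0571 to 0.192, among them pig 30 (-1.01, adjusted P value 0.122). In IC the log2 FC against CM was -0.17 over the stages (95% confidence interval -0.59 to 0.25, adjusted P value 0.474).

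**Figure D2:**
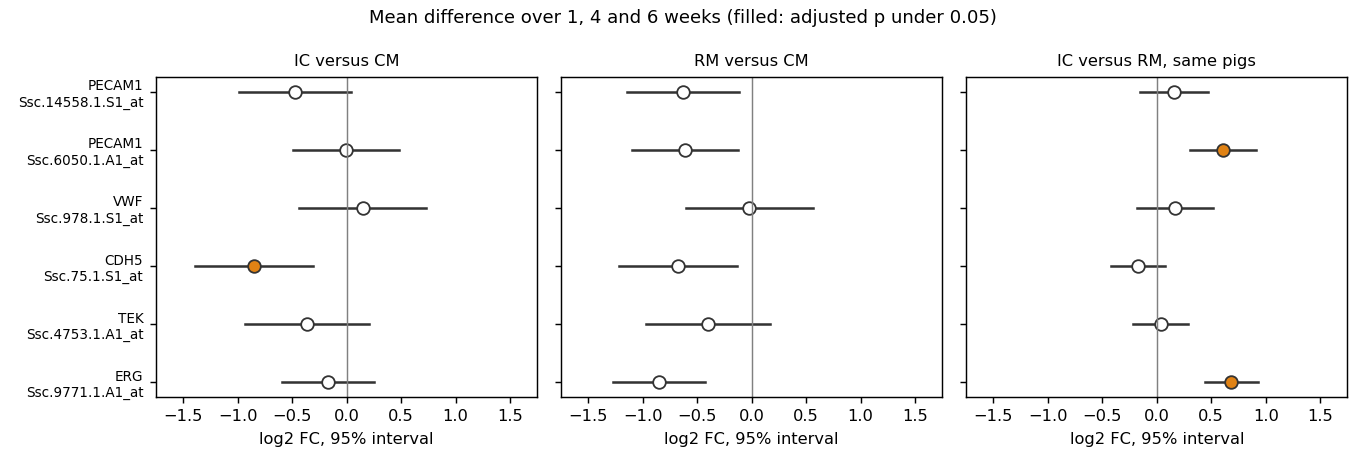
Log2 FC over the 3 stages (x axis) of the 6 tested probe sets (y axis) in IC against CM, RM against CM and IC against RM of the same pigs. Points are limma estimates, lines their 95% confidence intervals, and filled points passed an adjusted P value of 0.05: CDH5 at -0.85 in IC against CM, and PECAM1 (Ssc.6050.1.A1_at) at 0.61 and ERG at 0.68 in IC against RM.

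**Figure D3:**
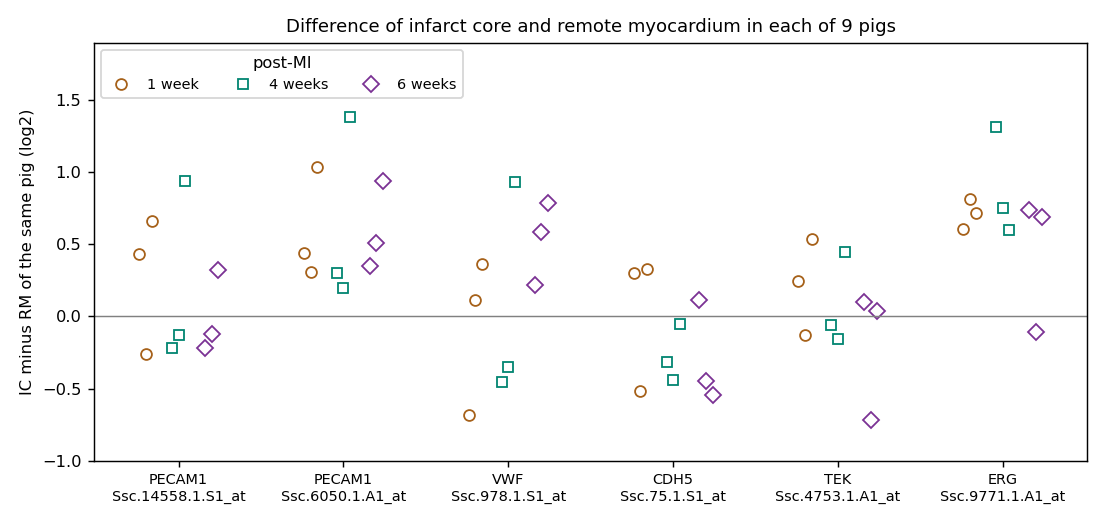
IC minus RM on the log2 scale (y axis) in each of 9 pigs, for the 6 tested probe sets (x axis) and with a symbol for each stage. PECAM1 (Ssc.6050.1.A1_at) lies above 0 in 9 of 9 pigs and ERG in 8 of 9, while CDH5 lies above 0 in 3 of 9.

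VWF, whose protein is stored in endothelial granules and platelets, was called in 0 of 21 limma comparisons, with 1 of them at an unadjusted P value under 0.05. It was at 5.73, 6.06 and 5.68 in IC at 1 week, 6.22, 6.00 and 7.11 at 4 weeks and 6.37, 7.13 and 6.43 at 6 weeks. In RM it was at 6.42, 5.94 and 5.31 at 1 week, 6.68, 6.34 and 6.18 at 4 weeks and 6.15, 6.54 and 5.64 at 6 weeks, against 6.62, 6.33 and 5.52 in CM. The CM arrays alone spanned more than 1 log2 unit, and over the stages the 95% confidence interval was -0.44 to 0.73 for IC against CM and -0.61 to 0.56 for RM against CM. Its IC arrays at 6 weeks all lay above those at 1 week (log2 FC 0.82, standard error 0.34), yet with an adjusted P value of 0.11 the difference was not called.

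TEK encodes Tie2, the receptor of the angiopoietins, and was called in 0 of 21 limma comparisons, with 0 at an unadjusted P value under 0.05. In IC it was at 6.50, 6.05 and 5.94 at 1 week, 5.36, 5.67 and 6.70 at 4 weeks and 5.69, 5.02 and 6.07 at 6 weeks. In RM it was at 6.25, 6.18 and 5.41 at 1 week, 5.42, 5.82 and 6.25 at 4 weeks and 5.59, 5.74 and 6.03 at 6 weeks, against 6.50, 6.30 and 5.96 in CM. The groups overlapped, with a log2 FC over the stages of -0.36 in IC (95% confidence interval -0.93 to 0.20, adjusted P value 0.255) and -0.40 in RM (-0.97 to 0.17, adjusted P value 0.551). IC against RM was 0.03 (95% confidence interval -0.22 to 0.29, adjusted P value 0.801), with IC higher in 5 of 9 pigs.

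Time after the infarct gave no call. In the 3 stage comparisons within IC 0 of 6 endothelial probe sets were called, with 3 of the 18 values at an unadjusted P value under 0.05 in limma, where 11.9%, 15.7% and 3.88% of all tested probe sets were called at 4 against 1, 6 against 1 and 6 against 4 weeks. Besides VWF these were ERG at 4 against 1 week (0.59, adjusted P value 0.123) and ERG at 6 against 4 weeks (-0.69, adjusted P value 0.127). Within RM 0 of 6 were called in each of the 3 comparisons and 0 of 18 values had an unadjusted P value under 0.05, where 1.59%, 0.181% and 0.632% of all tested probe sets were called. The log2 FC of the 6 probe sets between stages of RM ran from -0.29 to 0.51. Whether the difference of IC and RM itself changed with stage was tested in the paired fit, with 0 of 6 called in each of the 3 comparisons and 0 of 18 at an unadjusted P value under 0.05, where 0.0657%, 0.32% and 0% of all tested probe sets were called. The lowest adjusted P value among these was 0.539, for VWF at 6 against 1 week.

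KDR and NOS3, with low values, and further probe sets of VWF, CDH5 and TEK were measured but not tested with the others. KDR, the main VEGF receptor of endothelium, was below 3 in all 21 arrays with both Ssc.15999.1.A1_at (mean 1.01) and Ssc.15999.1.S1_at (mean 1.02), near percentile 17.0 of all probe sets. Values this low do not give the amount of KDR RNA in the tissue. NOS3 (Ssc.16364.1.S1_at) was at 3.10, 2.74 and 2.50 in IC at 1 week, 2.72, 2.62 and 3.24 at 4 weeks and 3.61, 2.64 and 2.39 at 6 weeks. In RM it was at 2.70, 2.59 and 2.86 at 1 week, 2.97, 2.54 and 3.21 at 4 weeks and 3.34, 2.70 and 2.41 at 6 weeks, against 3.16, 3.29 and 3.34 in CM. NOS3 exceeded 3 in 3 of 9 IC arrays, 2 of 9 RM arrays and 3 of 3 CM arrays. In a limma fit without the filter, over all 24123 probe sets, the log2 FC of NOS3 over the stages was -0.42 in IC (adjusted P value 0.152) and -0.45 in RM (adjusted P value 0.526). In that fit both KDR probe sets were lower in IC than in RM over the stages, where 33.5% of all 24123 probe sets were. Their log2 FC was -0.30 for Ssc.15999.1.A1_at (adjusted P value 0.0168) and -0.29 for Ssc.15999.1.S1_at (adjusted P value 0.00674). Neither was called in IC or RM against CM.

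The low CDH5 probe set, Ssc.75.2.S1_a_at, was at 2.99, 1.82 and 2.43 in IC at 1 week, 2.33, 2.36 and 3.66 at 4 weeks and 2.23, 2.29 and 2.16 at 6 weeks. In RM it was at 2.56, 2.52 and 2.50 at 1 week, 2.66, 3.45 and 3.96 at 4 weeks and 2.64, 2.58 and 2.66 at 6 weeks, against 3.77, 3.61 and 3.50 in CM. It lay below all CM arrays in 8 of 9 IC and 8 of 9 RM arrays. In the fit without the filter it was lower in IC than in CM over the stages (log2 FC -1.16, adjusted P value 0.00198) and lower in IC than in RM (-0.36, adjusted P value 0.025), where 22.8% and 33.5% of all 24123 probe sets were lower. Both CDH5 probe sets thus had a negative log2 FC in IC, although a size among values below 3 is not exact.

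The low VWF probe sets had the opposite sign to Ssc.978.1.S1_at in these comparisons. Over the stages Ssc.978.2.S1_at, below 3 in all 21 arrays, was lower in IC than in CM (-0.31, adjusted P value 0.0217) and than in RM (-0.37, adjusted P value 0.00419). Ssc.978.2.A1_at, above 3 in 1 array, was lower in IC than in RM (-0.36, adjusted P value 0.022), where the tested VWF probe set had a log2 FC of 0.17 (adjusted P value 0.352). Values below 3 are not exact, and 22.8% and 33.5% of all 24123 probe sets were lower in IC than in CM and in RM in the fit without the filter. The low TEK probe sets, Ssc.15902.1.A1_at and Ssc.15902.1.S1_at, were at means of 0.67 and 0.82 and were not called.

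**Figure D4:**
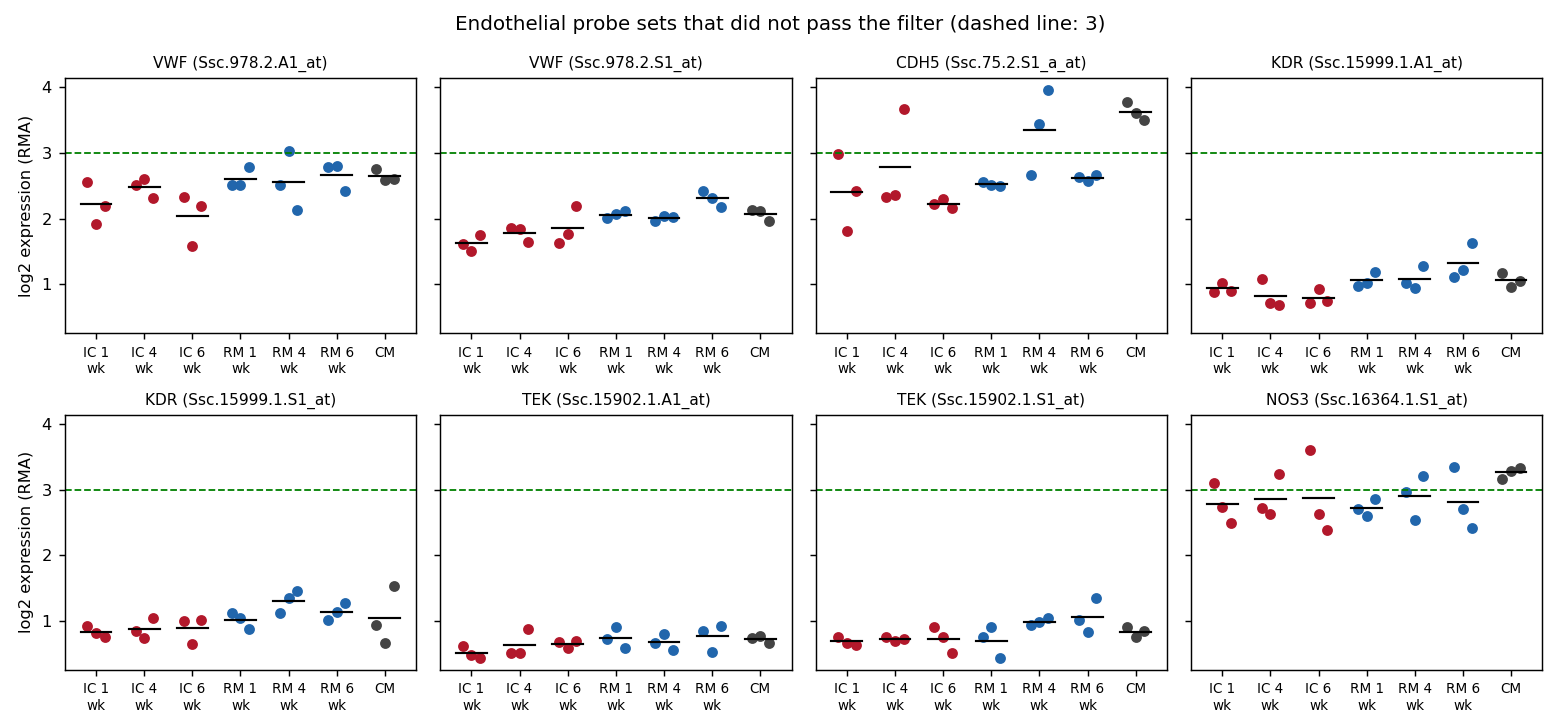
Log2 expression (y axis) of the 8 endothelial probe sets that did not pass the filter, in IC and RM at 1, 4 and 6 weeks and in CM (x axis), with 1 point per array, the group mean as a line and the level of 3 dashed. Both KDR and both low TEK probe sets lie below 3 in all 21 arrays, and the 3 CM arrays of CDH5 and NOS3 lie above 3.

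The endothelial genes did not all differ between the regions to the same degree. The difference of PECAM1 (Ssc.6050.1.A1_at) and CDH5 in the same array was larger in IC than in CM by 0.85, and all 9 IC arrays lay above all 3 CM arrays (exact permutation test, two-sided P value 0.00455, the smallest possible, 0.0341 after adjustment over the 45 differences of 15 probe set pairs in 3 comparisons). It was larger in IC than in RM by 0.78, in 9 of 9 pigs (exact sign flip test, P value 0.00391, adjusted 0.0341). The difference of CDH5 and ERG was smaller in IC than in RM by 0.86, in 9 of 9 pigs (exact, P value 0.00391, adjusted 0.0341), and that of TEK and ERG smaller by 0.65, in 9 of 9 pigs (exact, P value 0.00391, adjusted 0.0341). PECAM1 (Ssc.6050.1.A1_at) minus TEK was larger in IC than in RM by 0.57, also in 9 of 9 pigs (exact, P value 0.00391, adjusted 0.0341). With the other PECAM1 probe set, Ssc.14558.1.S1_at, none of these differences passed. Its difference with CDH5 was larger in IC by 0.38 than in CM and by 0.33 than in RM (exact, adjusted P value 0.168 and 0.126). Its difference with TEK was larger in IC than in RM by 0.12 (exact, adjusted P value 0.423). In IC against CM only Ssc.6050.1.A1_at minus CDH5 passed. In RM against CM 0 of the 15 differences passed, the lowest adjusted P value being 0.0765 for PECAM1 (Ssc.14558.1.S1_at) minus VWF (exact). These differences were chosen for testing after the values were seen.

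Within groups the members varied more than most genes and mostly together. Their within-group standard deviation was 0.32 (ERG) to 0.46 (VWF), beside a median of 0.24 over all tested probe sets. After the group means were taken out, the correlation over the 21 arrays between probe sets of different members ran from -0.12 (VWF with ERG) to 0.80 (CDH5 with TEK), with a median of 0.57 in 14 pairs, and the 2 PECAM1 probe sets correlated at 0.93. IC and RM arrays share pigs and all arrays share a normalization, so these correlations are a description. In RM at 1 week pig 9 was the lowest of 3 in 6 of 6 probe sets, and in RM at 4 weeks pig 22 was the highest in 5 of 6.

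Over all 21 arrays the named genes most like PECAM1 (Ssc.14558.1.S1_at) were ECSCR, an endothelial surface protein (r = 0.88), and CLDN5, the claudin of endothelial tight junctions (0.81), followed by FABP4 (0.80), CAV1 (0.78) and CDH5 (0.75). CDH5 was most like CAV1, the main protein of caveolae (0.81), ITM2A (0.79), PECAM1 (0.75), OGFOD1 (0.75) and FABP4 (0.75). TEK was most like TSPAN13 (0.83) and ECSCR (0.77), then CDH5 (0.70), IPO11 (0.69) and TBK1 (0.69). Other members had few endothelial genes among their 5 most similar. Those of PECAM1 (Ssc.6050.1.A1_at) were RPS29 (0.79), SH3BP5 (0.78), IGF2 (0.76), RASSF1 (0.76) and VCAM1 (0.76), and those of ERG were MOSPD2 (0.79), TBK1 (0.79), CMTM6 (0.77), TPR (0.76) and TRIM52 (0.75). VWF was most like MEAF6 (0.85), ATP8B1 (0.84), FBXL5 (0.82), CFD (0.80) and NACA (0.80).

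Beyond the 7 genes, 7 lists of genes that act in or on endothelium held 115 genes, of which 51 had a tested probe set. In IC against CM over the stages 18 of these were higher, 11 lower and 22 not called, where 27.5% of all tested probe sets were higher and 31.8% lower. In RM against CM 0 were higher and 2 (S1PR1 and NOTCH4) lower, where 0.378% and 0.501% of all were. There 15 of the 51 had an unadjusted P value under 0.05 in limma, and 10 did without pig 30. In IC against RM 24 were higher and 15 lower, where 33% and 39.2% of all were. Without the IC array of pig 22 there were 19 higher and 13 lower in IC than in CM, and without pig 30 there were 16 higher and 12 lower, while in RM 1 was lower without pig 30. The values that follow are over the 3 stages, with 9 arrays in IC and RM and 3 in CM.

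Ligands that act on vessels changed in both directions, with 3 of 7 higher and 2 lower in IC than in CM and a median log2 FC of 0.55. Beside this, 27.5% of all tested probe sets were higher and 31.8% lower, with a median of -0.07. CXCL12, a chemokine that draws in cells with the receptor CXCR4, was at 6.12 to 7.69 in IC, against 3.86 to 4.15 in CM (log2 FC 2.99, standard error 0.19, adjusted P value 1.15e-09). VEGFA, the growth factor that KDR binds, which cardiomyocytes also make, was lower, at 6.76 to 7.78 in IC, against 8.42 to 8.70 in CM (-1.42, adjusted P value 1.7e-07). VEGFB, its relative, was lower by less (-0.79, adjusted P value 3.4e-05, and -0.51 with cyclic loess). ANGPT2, the angiopoietin that opposes Tie2 signalling, was higher (0.55, adjusted P value 0.0267), as was EDN1, the vasoconstrictor endothelin (0.91, adjusted P value 0.0188). In 15 refits, which changed the filter or the scaling or left out an array and were chosen after the values were seen, ANGPT2 passed in 12 and EDN1 in 13. The call was lost without pig 31 (ANGPT2 at 0.44, EDN1 at 0.47, adjusted P value 0.135 and 0.233) or pig 33 (0.44 and 0.71, adjusted P value 0.137 and 0.114), and with median centring for ANGPT2 (0.47, adjusted P value 0.0592). Without pig 30, whose array was the highest of CM in EDN1 at 3.84, against 1.68 and 2.18 in pigs 31 and 33, EDN1 had a log2 FC of 1.55 (adjusted P value 3.92e-05).

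Of 4 measured receptors 2 were higher and 1 lower in IC than in CM, with a median log2 FC of 0.40. Beside this, 27.5% of all tested probe sets were higher and 31.8% lower, with a median of -0.07. CXCR4, which leukocytes also carry, was at 4.11 to 8.24 in IC, against 3.11 to 4.70 in CM (1.81, adjusted P value 6.68e-05), RAMP2, the partner of the adrenomedullin receptor, had a log2 FC of 0.60 (adjusted P value 0.00501), and S1PR1, the sphingosine-1-phosphate receptor that steadies the vessel wall, was lower (-1.15, adjusted P value 3.95e-06). S1PR1 was also lower in RM, at 7.45 to 7.91, against 8.35 to 8.82 in CM (-0.88, adjusted P value 0.0106), and the groups did not overlap. This call was lost without pig 31 (-0.77, adjusted P value 0.0855) and held in the other 14 of 15 refits.

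Junction and adhesion genes had 3 of 10 higher and 1 lower in IC than in CM, with a median log2 FC of -0.03, beside 27.5% and 31.8% of all tested probe sets and a median of -0.07. In IC against RM 6 were higher and 0 lower, with a median of 0.49, beside 33% and 39.2% of all tested probe sets and a median of -0.06. MCAM, an adhesion molecule of vessel walls (1.50, adjusted P value 5.05e-05), CD34, a surface protein of capillaries that some fibroblasts and progenitors also carry (1.43, adjusted P value 1.01e-06), and JAM3 (0.42, adjusted P value 0.017) were higher in IC than in CM. The JAM3 call was lost without pig 30 (0.31, adjusted P value 0.123) or pig 31 (0.41, adjusted P value 0.0566). ESAM, an adhesion molecule of endothelial tight junctions, was lower (-0.95, adjusted P value 0.000865), at 3.16 to 4.78 in IC, against 4.84 to 5.10 in CM. ESAM was at 4.02 to 4.52 in RM, also below all CM arrays, although it was not called there. ICAM1 and VCAM1 were higher in IC than in RM (0.91 and 1.68, adjusted P value 0.000324 and 2.05e-05). Against CM, where both were high in the array of pig 30, neither was called in IC or RM. The log2 FC of ICAM1 was -0.999 in IC (adjusted P value 0.151) and -1.91 in RM (0.134), and without pig 30 it was 0.42 in IC (0.169) and -0.49 in RM (0.493). VCAM1 had 0.58 in IC (adjusted P value 0.321) and -1.10 in RM (0.316), and without pig 30 it was called in IC at 1.52 (0.00405) and not in RM at -0.16 (0.932).

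Transcription factors and Notch genes had 3 of 11 higher and 5 lower in IC than in CM, with a median log2 FC of -0.20, beside 27.5% and 31.8% of all tested probe sets and a median of -0.07. HEY2, a Notch target, was at 5.20 to 6.17 in IC, against 7.34 to 8.20 in CM (-2.05, adjusted P value 7.81e-07). Its RM arrays, at 6.82 to 8.11, overlapped CM. NOTCH4, the Notch receptor of endothelium, was at 4.19 to 5.09 in IC, against 5.72 to 5.85 in CM (-1.14, adjusted P value 7.59e-06). NOTCH4 was also lower in RM, at 4.60 to 5.32 (-0.78, adjusted P value 0.0268), a call that was lost without the CM array of pig 30, 31 or 33 (adjusted P value 0.0955, 0.151 and 0.0749) or the RM array of pig 20 (0.0504). ETS2 (-1.26, adjusted P value 0.00238) and EPAS1, a hypoxia-inducible factor of endothelium (-1.19, adjusted P value 0.000219), were lower in IC. EPAS1 in RM, at 4.42 to 5.06, also lay below all CM arrays, at 5.15 to 5.63, although it was not called there. NR2F2, a factor of venous identity, was higher (1.36, adjusted P value 1.55e-05), at 6.80 to 8.48 in IC, against 5.91 to 6.12 in CM.

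Genes of haemostasis had 6 of 7 higher and 0 lower in IC than in CM, with a median log2 FC of 1.49, beside 27.5% and 31.8% of all tested probe sets and a median of -0.07. They were led by ANXA2, a plasminogen-binding annexin (2.30, adjusted P value 7.15e-09), PTGS1, a prostaglandin synthase (1.94, adjusted P value 5.04e-07), ENTPD1, which degrades extracellular ATP (1.68, adjusted P value 0.000159), PLAT, tissue plasminogen activator (1.49, adjusted P value 0.000942), and PROCR, the protein C receptor (1.09, adjusted P value 0.00919). ANXA2 was at 9.55 to 10.18 in IC, 7.25 to 8.27 in RM and 7.39 to 7.85 in CM. Several of these genes, ANXA2 and PTGS1 among them, are also expressed by fibroblasts or leukocytes.

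For the next 3 lists, 27.5% of all tested probe sets were higher in IC than in CM and 31.8% lower. Of 8 genes of the nitric oxide and caveolar list 1 was higher in IC than in CM, GUCY1B3, a subunit of the guanylate cyclase that senses nitric oxide (0.75, adjusted P value 0.000534), and the median was -0.20, beside -0.07 over all tested probe sets. Of 4 genes of capillary lipid handling 2 were lower, LPL, the lipoprotein lipase that cardiomyocytes make and the capillary wall displays (-1.69, adjusted P value 5.05e-06), and AQP1, a water channel of capillaries (-0.73, adjusted P value 6.7e-06, and -0.46 with cyclic loess). Among 3 lymphatic markers CCL21, a chemokine of lymphatic vessels (1.19, adjusted P value 0.0453), and PDPN, podoplanin (0.75, adjusted P value 0.0158), were higher. CCL21 passed in 4 of the 15 refits, and was not called without a filter, with either other scaling, without any 1 of the 3 CM arrays or without the IC array of pig 3, 5, 7, 9 or 22, at a log2 FC of 0.96 to 1.30. The PDPN call was lost without pig 31 (0.72, adjusted P value 0.0551) or pig 33 (0.59, adjusted P value 0.104). PDPN was at 5.85 to 7.27 in IC, a range that overlapped RM, at 5.61 to 7.05, and CM, at 5.49 to 6.19.

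**Figure D5:**
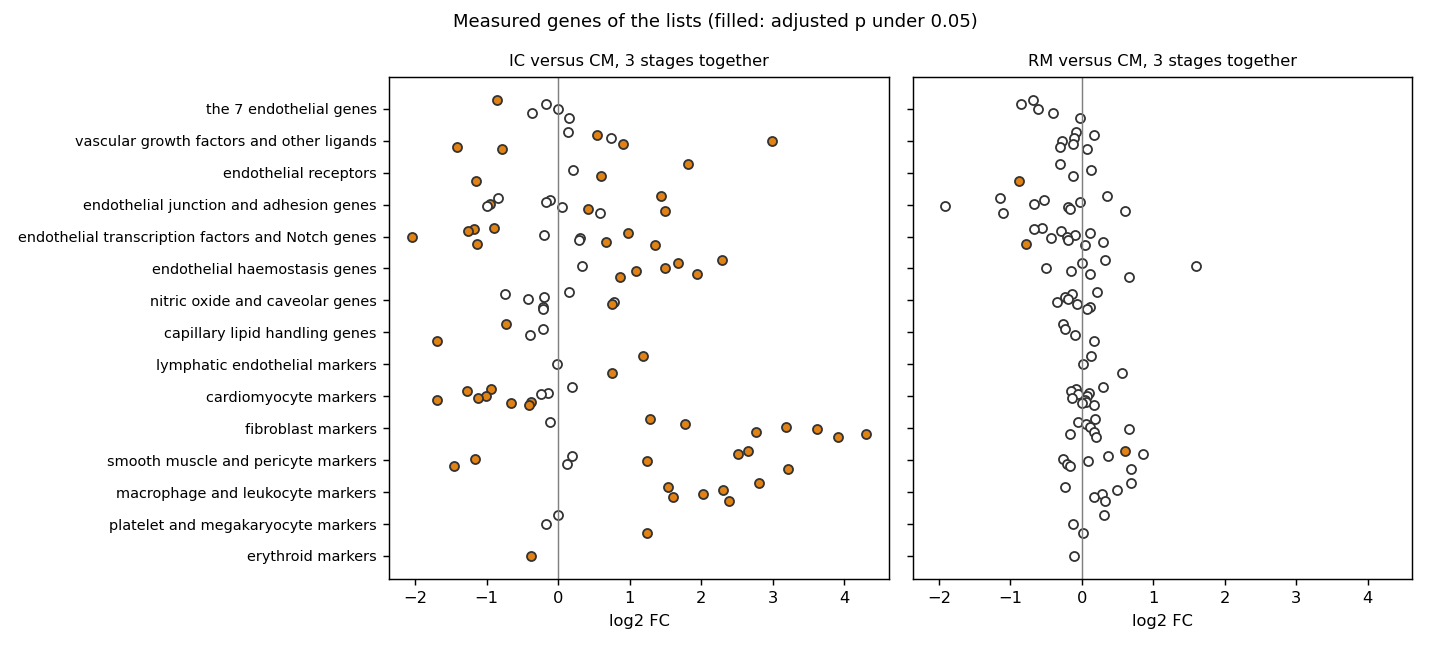
Log2 FC over the 3 stages (x axis) in IC against CM and RM against CM of each measured gene of the endothelial lists and of the marker lists of other cells (y axis). Filled points passed an adjusted P value of 0.05. Points of a list are spread vertically only to keep them apart. Most genes of the haemostasis, fibroblast and macrophage lists lie above 0 in IC, most cardiomyocyte markers below 0, and 3 points are filled in RM.

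Most markers of cardiomyocytes, fibroblasts and leukocytes differed between IC and CM. Of all tested probe sets 27.5% were higher in IC than in CM over the stages and 31.8% lower. Of 11 cardiomyocyte markers 8 were lower and 0 higher, with a summed level of 14.51 to 15.48 in IC, against 15.59 to 15.68 in CM. Of 8 fibroblast markers 7 were higher, with a summed level of 12.58 to 13.09 in IC, against 9.82 to 10.87 in CM, led by POSTN (4.31, adjusted P value 2.05e-08) and THY1 (3.92, adjusted P value 2.04e-09). Of 8 smooth muscle and pericyte markers 4 were higher and 2 lower, with ACTA2 at 10.34 to 11.20 in IC, against 7.87 to 8.28 in CM (2.65, adjusted P value 1.43e-10). Macrophage and leukocyte markers were higher in 6 of 6 cases, led by AIF1 (2.81, adjusted P value 6.17e-09). Of 3 platelet markers ITGB3 was higher (1.24, adjusted P value 0.00785, and 0.0649 without pig 31), with a summed level of 5.01 to 6.23 in IC, against 4.83 to 5.26 in CM. In RM against CM 0 of the 11 cardiomyocyte, 0 of the 8 fibroblast and 0 of the 6 leukocyte markers were called in limma, where 0.878% of all tested probe sets were. In each of these lists 1 was at an unadjusted P value under 0.05. ACTA2 was higher in RM than in CM (0.60, adjusted P value 0.0485), a call that held in 3 of 15 refits. It was lost without any 1 of the 3 CM arrays or the RM array of pig 2, 5, 7, 8, 18, 20 or 22, without a filter and with cyclic loess (0.48 to 0.69). The part of this change in tissue makeup in the endothelial values was not tested.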

How the data were processed

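The authors summarized the scanned arrays by RMA, and the deposited log2 values were used as they stand. RMA brings all arrays to the same distribution, which can hide a change that most genes share. Arrays give no read depth, and their number limits the precision. The 7 groups were fitted by limma 3.58.1 (R 4.3.3) as 1 mean per group, with 14 residual degrees of freedom. For IC against RM a second fit held the 18 arrays of the infarcted pigs and a term for each pig (6 residual degrees of freedom). The pairing comes from the pig number in the labels, and the residuals of arrays of the same pig correlated at 0.07 to 0.49. The fits were tested on simulated data with independent noise in each array and no effect of the pig. Such data cannot check the pairing or the independence of arrays of the same pig. P values of the first fit measure the spread between arrays of a group, with IC and RM arrays of a pig taken as independent. Those of the second measure the spread between pigs of the difference of IC and RM. An exact test of 3 arrays against 3 cannot go below 0.1.

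Symbols came from the platform table, which gives 1 for 6257 of the tested probe sets, several for 133 and none for 5790. Probe sets with several symbols or none were not assigned to the 7 genes, so further probe sets of these genes may have been missed. The 7 genes and the lists were chosen with earlier results of these data known. A list gene took its tested probe set with the highest mean, and from each list up to 5 called genes with the largest difference of IC and CM could be named. The values of ICAM1 and VCAM1, and those of S1PR1, NOTCH4 and ACTA2 in RM, were singled out after they were seen. A summed level is log2 of the sum of a list's unlogged values in an array. Alternatives were no filter, a filter above 5 in 3 arrays or more, median centring, cyclic loess, a variance trend with robust settings, fits of only the groups compared, the pig as a random block or no block, the mean of a gene's probe sets, and the omission of each array or pig.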

Additional observations from a re-analysis of the deposited data

Results flagged for a closer look

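IC and RM of the same pigs differed in ERG and in 1 of the 2 tested PECAM1 probe sets, in the paired limma test. For ERG (Ssc.9771.1.A1_at) the difference was 0.71 at 1 week (adjusted P value 0.00943, IC higher in 3 of 3 pigs), 0.89 at 4 weeks (0.00274, 3 of 3 pigs) and 0.68 over the 3 stages (0.00024, 8 of 9 pigs). For PECAM1 (Ssc.6050.1.A1_at) it was 0.63 at 4 weeks (adjusted P value 0.0439, 3 of 3 pigs) and 0.61 over the 3 stages (0.00218, 9 of 9 pigs), while the probe set Ssc.14558.1.S1_at had 0.20 at 4 weeks and 0.16 over the stages.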

How the results depend on the processing

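Of 1653 recomputed values of the 6 tested endothelial probe sets 105 changed sign, and 0 of those were called in either setting. The calls over the 3 stages held in all alternatives run, 19 for CDH5 in IC against CM (log2 FC -0.97 to -0.70, adjusted P value 0.00164 to 0.037), 15 for ERG (0.60 to 0.77, 9.54e-05 to 0.00115) and 16 for PECAM1 (Ssc.6050.1.A1_at, 0.38 to 0.80, 0.000884 to 0.0269) in IC against RM. The 0.38 came from the mean of both PECAM1 probe sets. At single stages the call of ERG in IC against RM at 4 weeks held in 9 of 9 alternatives (adjusted P value 0.00254 to 0.0275), and each other call was lost in 1 or more. The cause was not tested. Counts of called probe sets, 1 of 6 in IC against CM at each stage and over the stages, changed with cyclic loess to 0 at 1, 4 and 6 weeks (CDH5 at -0.72, -0.63 and -0.75, adjusted P value 0.0626, 0.104 and 0.0613), without a filter to 0 at 4 weeks, and in fits of only the groups compared to 0 at 4 weeks and 2 at 6 weeks. In RM against CM the 1 call at 1 week became 0 without a filter and in the fit of only those groups, and the 0 over the stages became 1 (ERG) with the stricter filter and with the pig as a random replicate block. In IC against RM the 2 calls at 4 weeks became 1 without a filter, with median centring and without the replicate block. The 1 call at 1 week became 2 with cyclic loess and with a variance trend, and the 0 at 6 weeks became 1 with cyclic loess. With 1 array or pig left out, the counts ran from 0 to 2 in IC against CM at 1 week, 0 to 1 at 4 weeks, 0 to 1 at 6 weeks and 1 to 2 over the stages. They ran from 0 to 1 in RM against CM at 1 week and over the stages, and in IC against RM from 0 to 1 at 1 week, 1 to 2 at 4 weeks and 0 to 1 at 6 weeks. Median centring moved the median log2 FC of all probe sets from -0.06 to -0.17 in IC against CM at 1 week and in IC against RM at 6 weeks, where the calls over all probe sets split into 2340 higher and 3924 lower, against 2758 and 3049 as deposited. The pairing changed no other count than those named.

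The 3 control arrays and 3 pigs per stage limit the precision, and values near 3, as for NOS3, are low on these arrays.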
